A study of Mus musculus with 22 samples.

Results

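The genes described here encode hyperpolarization-activated cyclic nucleotide-gated (HCN) channels and voltage-gated sodium channels. They are 8 of the 23361 gene rows of the expression matrix, chosen by name: Hcn2, Hcn3 and Hcn4 among the HCN channels, Scn1a, Scn3a and Scn8a among the sodium channel alpha subunits, and Scn2b and Scn4b among the beta subunits. Their mRNA was measured in the hippocampal CA1 region of 22 wild-type Swiss Webster x DBA/C57BL6 F1 females, with 1 sequencing library per mouse. The groups were ad libitum (AL) fed mice and calorie-restricted (CR) mice at 5 months of age (n = 5 each) and the same diets at 15 months (n = 6 each), where CR began in early adulthood and was made by lowering carbohydrates. Levels are given as the authors' deposited FPKM (fragments per kilobase of exon, scaled to the mapped fragments of the library), a unit that corrects for gene length. All 8 genes passed the filter of a mean of at least 0.1 FPKM and were among the 16978 genes tested. The samples were microdissected tissue in which all cell types are pooled, so fewer cells of a type and less RNA per cell cannot be told apart.

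HCN channels open when a neuron is hyperpolarized and pass a mixed sodium and potassium inward current, known as Ih, which cyclic AMP facilitates to a different degree in each subtype. In CA1 pyramidal neurons Ih is strongest in the apical dendrites, where it dampens and shortens synaptic potentials. Voltage-gated sodium channels consist of a pore-forming alpha subunit, which opens on depolarization to start and propagate the action potential, and of beta subunits, which tune gating and anchor the channel to the membrane and to other cells. These channels are concentrated at the axon initial segment and at nodes of Ranvier.

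The libraries had median levels of 2.51 to 3.10 FPKM and 18281 to 19175 genes above 0. Sequencing depth is unknown from FPKM alone, and the error given is the spread between mice. CA1 content was described with 5 marker genes of CA1 pyramidal neurons, of which none was at 0. The same held for the thalamus, striatum and choroid plexus markers, so presence alone does not show CA1 origin. The summed CA1 marker level ranged from 210 to 467 FPKM in AL mice and from 274 to 409 in CR mice at 5 months. At 15 months it ranged from 172 to 265 in AL mice and from 83.8 to 408 in CR mice. The sum over 6 markers of neocortex and subiculum ranged from 56.2 to 76.5, from 50.7 to 74.7, from 67.4 to 120 and from 57.4 to 122 FPKM in the same order. In the comparison of AL mice at 15 and 5 months, 3 of the 5 CA1 markers were lower, 3 of the 6 neocortex and subiculum markers were higher, and the others did not pass the test. CR 5 months replicate 4 stood apart by 224 FPKM summed over 7 choroid plexus markers, and CR 15 months replicate 4 by the lowest CA1 sum, 83.8 FPKM. Without both, the count of channel genes that passed the test was the same in every comparison.

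The 8 genes lie on 5 chromosomes, in GRCm38 coordinates of the GENCODE annotation. Hcn2 is on chromosome 10 from 79716634 to 79736108, Hcn3 on chromosome 3 from 89146074 to 89160196 and Hcn4 on chromosome 9 from 58823412 to 58863175. Scn1a is on chromosome 2 from 66270778 to 66440840, Scn3a on chromosome 2 from 65457118 to 65567627 and Scn8a on chromosome 15 from 100869858 to 101045938. The beta subunit genes are neighbors on the plus strand of chromosome 9, Scn2b from 45117782 to 45130070 and Scn4b from 45138395 to 45154152, with 8324 bases between them. The annotation places a gene on the opposite strand over part of Hcn3 (Pklr), Scn1a (Gm13630), Scn3a (Gm13595) and Scn2b (Gm10684), and no source used here states that reads were counted by strand.

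Levels per length spanned a wide range among these genes. Averaged over all 22 libraries, Scn2b was highest at 62.0 FPKM, followed by Scn8a and Hcn2 (41.3 and 41.2 FPKM), Scn1a (21.3), Scn4b (8.36), Scn3a (7.83), Hcn3 (5.97) and Hcn4 (0.781). Most steps of this order held in every mouse, since Scn2b was above Scn8a, Hcn2 above Scn1a, Scn1a above Scn4b and Hcn3 above Hcn4 in 22 of 22 libraries. Scn8a and Hcn2 did not differ beyond their spread, with Scn8a higher in 15 libraries. Scn4b, which had the higher mean, was above Scn3a in 7 libraries, and Scn3a was above Hcn3 in 18.

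Of the summed alpha subunits Scn1a, Scn2a1, Scn3a and Scn8a, Scn8a held 38.2% ± 1.94 (SD, n = 5) in the younger AL mice and 32.2% ± 2.41 (SD, n = 6) in the older ones, and 37.0% ± 1.14 (SD, n = 5) and 34.9% ± 4.67 (SD, n = 6) in CR mice of these ages. The range in CR mice at 15 months, 30.1% to 41.0%, overlapped that of each other group. The range in AL mice at 15 months, 28.1% to 35.2%, overlapped neither that of AL mice (36.2% to 40.8%) nor that of CR mice (35.3% to 38.1%) at 5 months. These shares are descriptive and were not tested.

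**Figure D1:**
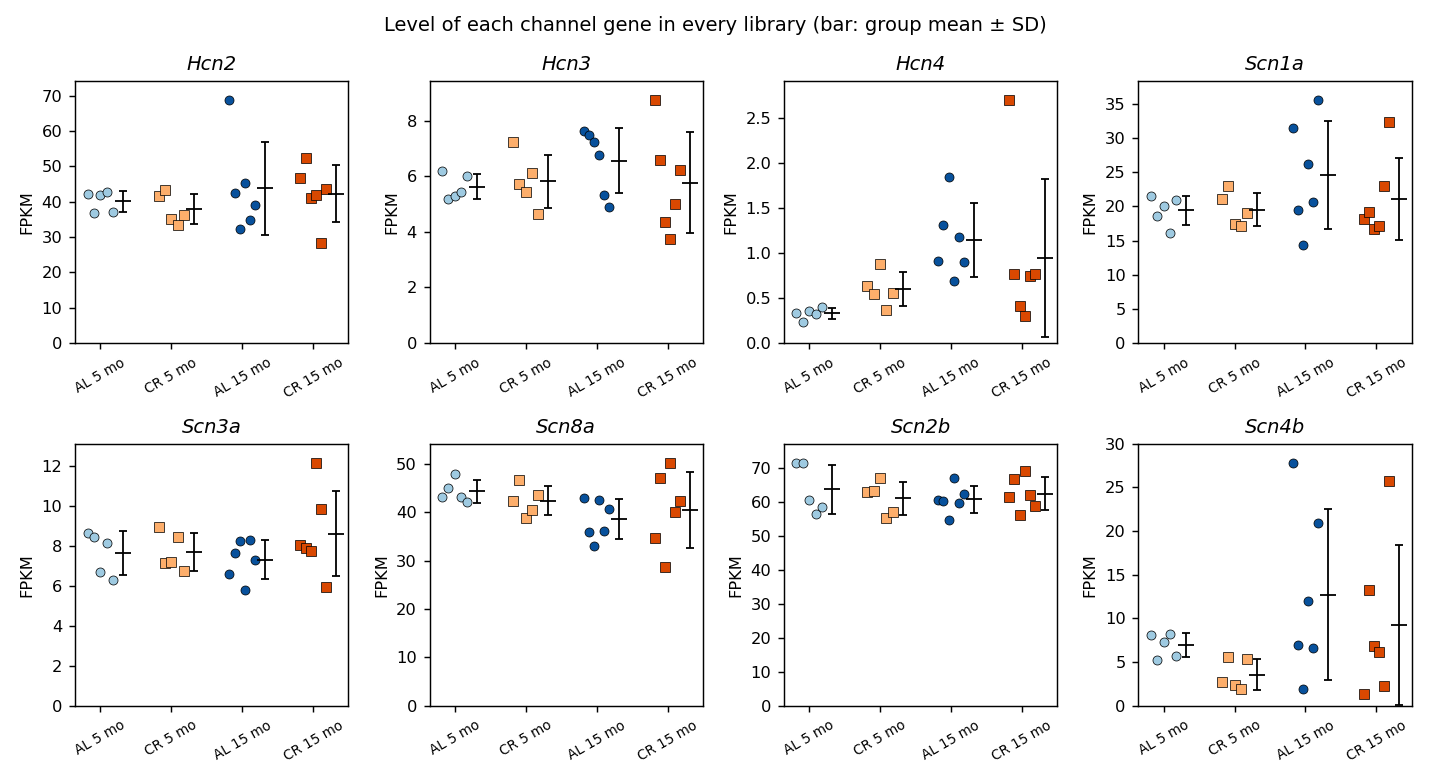
FPKM (y axis, from 0) of each of the 8 channel genes in every library of the 4 groups (x axis), with 1 point per mouse and the group mean ± SD as a bar beside the points. Hcn4 reaches at most 0.399 FPKM in the AL libraries at 5 months and at least 0.693 FPKM in those at 15 months, Scn2b lies between 54.8 and 71.4 FPKM in every library, and Scn4b spreads from 1.31 to 27.8 FPKM.

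With age in AL-fed mice, Hcn4 rose and the other 7 genes did not pass the test. This comparison asks which channel genes differed between older and younger adults on the control diet. Calls required an adjusted p under 0.05 over all genes in the two-sided limma test, fitted to log2(FPKM + 0.1) in the 4 groups, and 20.6% of all genes tested were called, against 1 of these 8. The median log2 fold change was 0.14 over the 8 genes and -0.0018 over all genes tested.

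Hcn4 encodes the HCN subtype best known as the pacemaker channel of the heart's sinus node, and in the brain it is most abundant in thalamus and other subcortical regions. In AL mice at 5 months its levels were 0.337, 0.238, 0.351, 0.319 and 0.399 FPKM. In AL mice at 15 months they ranged from 0.693 to 1.85 FPKM with a median of 1.05. Every library at 15 months was above every library at 5 months, a lack of overlap found for 14% of all genes tested. The group means were 0.329 ± 0.0588 FPKM (SD, n = 5) and 1.14 ± 0.411 FPKM (SD, n = 6), a ratio of 3.48. The log2 fold change was 1.48 (SE 0.35, 95% interval 0.76 to 2.21, limma adjusted p = 0.00580), and the exact two-sided permutation p was 0.00433, the smallest that 5 mice against 6 allow. Because the level at 5 months is close to the pseudocount of 0.1, this fold change understates the ratio of means.

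The Hcn4 difference passed the test with each AL library omitted in turn (log2 fold changes of 1.34 to 1.60) and under each scaling of the libraries (1.39 to 1.59). Its size depended on the pseudocount, with 0.67 at a pseudocount of 1 (limma adjusted p = 0.0169) and 1.71 at 0.01 (limma adjusted p = 0.00489). Markers of tissue region also differed between the AL groups. The region score, the mean log2 level of the neocortex and subiculum markers minus that of the CA1 markers, averaged -2.91 ± 0.624 (SD, n = 5) in the younger AL mice and -0.39 ± 0.826 (SD, n = 6) in the older ones, and its ranges (-3.55 to -2.03 and -1.30 to 0.58) did not overlap. With this score as a covariate the Hcn4 log2 fold change was 0.77 (limma adjusted p = 0.516), in a limma fit where 0 genes were called with age and 2434 had an unadjusted p under 0.05. CR mice at 5 months had a mean score of -2.89 ± 0.229 (SD, n = 5), near that of AL mice. Their mean Hcn4 was 0.598 FPKM, and the difference from AL mice of that age was not called. The AL library of 15 months with the most Hcn4 (1.85 FPKM) had a score of -1.30, and the one with the least (0.693 FPKM) also had -1.30. CR 15 months replicate 0, with the most Hcn4 of the study (2.70 FPKM), had a score of -0.11. CR 15 months replicate 3, with the least Hcn4 at 15 months (0.297 FPKM), had a score of -2.75. How far tissue region contributed to the Hcn4 difference was not tested. The summed thalamus markers, 5 genes with none at 0 in any library and 1 of 4 tested called higher with age, ranged from 11.7 to 22.2 FPKM in AL mice at 5 months and from 13.6 to 39.8 FPKM at 15 months. The part of the thalamus markers in the Hcn4 difference was not tested.

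**Figure D2:**
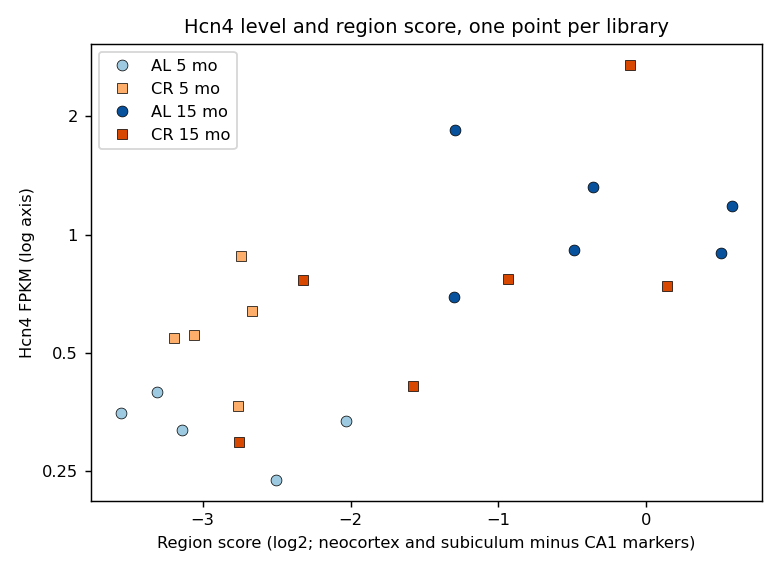
Hcn4 FPKM (y axis, log scale) against the region score in log2 units (x axis; neocortex and subiculum markers minus CA1 markers), with 1 point per library and color and shape by group. The AL libraries at 5 months lie at scores of -3.55 to -2.03 with Hcn4 up to 0.399 FPKM, and those at 15 months at -1.30 to 0.58 with Hcn4 from 0.693 FPKM upward.

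Under CR, Hcn4 did not pass the test in any comparison. CR mice at 5 months had 0.639, 0.547, 0.882, 0.368 and 0.556 FPKM, a mean of 0.598 ± 0.187 (SD, n = 5). All 5 were above the AL median at that age, although the lowest lay within the AL range. The CR against AL log2 fold change at 5 months was 0.67 (SE 0.37, 95% interval -0.09 to 1.44), with an exact two-sided permutation p of 0.0159 and a limma adjusted p of 1. This SE rests on a spread shared by all 4 groups, while the permutation test used only the 2 groups at 5 months. The Hcn4 coefficients of variation in AL and CR mice were 17.9% and 31.2% at 5 months and 36.0% and 93.0% at 15 months. CR mice at 15 months ranged from 0.297 to 2.70 FPKM with a median of 0.754 and a mean of 0.948 ± 0.882 FPKM (SD, n = 6). One CR library, replicate 0, held the highest level of the study, and the next CR library had 0.771 FPKM. Against AL mice of the same age the log2 fold change was -0.50 (SE 0.33, 95% interval -1.19 to 0.20, adjusted p = 0.463; exact permutation p = 0.281), and without CR replicate 0 it was -0.84 (adjusted p = 0.0561). Between CR mice at 15 and 5 months it was 0.32 (SE 0.35, adjusted p = 0.678), and without CR 15 months replicate 0 it was -0.03.

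The interaction of age and diet for Hcn4, the age difference in CR mice minus that in AL mice, was -1.17 on the log2 scale (SE 0.49, 95% interval -2.20 to -0.14). It was not called, with an unadjusted limma p of 0.0280 and an adjusted p of 0.639. For the interaction 0% of all genes and none of the 8 were called by limma, and 1301 genes had an unadjusted p under 0.05. Hcn4 in CR mice at 15 months was 0.99 above AL mice at 5 months on the log2 scale (SE 0.35, adjusted p = 0.123), a comparison in which 3.12% of all genes and none of the 8 were called. Without CR 15 months replicate 3, the library with the lowest Hcn4 of its group (0.297 FPKM), this difference was 1.21 and passed the test (adjusted p = 0.0420). That library also had a region score of -2.75 and the most dentate granule cell marker RNA.

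Hcn2, a main carrier of Ih in forebrain neurons with a strong response to cyclic AMP, was the most abundant of the 3 HCN genes described and did not pass the test in any comparison. AL mice at 5 months had 42.3, 36.7, 41.8, 42.9 and 37.2 FPKM, and AL mice at 15 months ranged from 32.3 to 68.7 FPKM with a median of 40.7. The groups overlapped, and the highest value, 68.7 FPKM in AL 15 months replicate 0, was far above the next of its group at 45.3. CR mice had 41.6, 43.3, 35.2, 33.4 and 36.2 FPKM at 5 months and 28.3 to 52.4 FPKM (median 42.6) at 15 months. The log2 fold change with age in AL mice was 0.08 (SE 0.16, 95% interval -0.25 to 0.41, adjusted p = 0.749) and became -0.06 without AL 15 months replicate 0.

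Hcn3, a subtype with little response to cyclic AMP, had lower levels than Hcn2 in every group. AL mice at 5 months had 6.19, 5.20, 5.31, 5.42 and 6.03 FPKM, and AL mice at 15 months ranged from 4.90 to 7.63 FPKM with a median of 7.003. CR mice had 7.24, 5.72, 5.44, 6.12 and 4.63 FPKM at 5 months and 3.74 to 8.74 FPKM (median 5.62) at 15 months. All 4 groups overlapped. The log2 fold changes were 0.20 with age in AL mice (95% interval -0.16 to 0.56, adjusted p = 0.428) and -0.22 under CR at 15 months (-0.56 to 0.13, adjusted p = 0.520).

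Among the sodium channel alpha subunits none passed the test in any comparison. Scn8a, which encodes Nav1.6, the main alpha subunit of mature axon initial segments and nodes, came closest. AL mice at 5 months had 43.2, 45.1, 48.0, 43.2 and 42.1 FPKM, and those at 15 months had 32.9 to 42.9 FPKM with a median of 38.4. All 6 libraries at 15 months were below the median at 5 months, although the ranges overlapped at their edge. The means were 44.3 ± 2.33 FPKM (SD, n = 5) and 38.6 ± 4.11 FPKM (SD, n = 6), with a log2 fold change of -0.21 (SE 0.11, 95% interval -0.43 to 0.02, limma adjusted p = 0.184). The exact two-sided permutation p of Scn8a was 0.0216. CR mice had 42.3, 46.7, 38.8, 40.6 and 43.7 FPKM at 5 months and 28.7 to 50.2 FPKM (median 41.1) at 15 months, a range that contained all values of AL mice at that age.

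Scn1a encodes Nav1.1, known above all from fast-spiking inhibitory interneurons. Its levels were 21.5, 18.6, 20.1, 16.2 and 20.9 FPKM in AL mice and 21.0, 23.0, 17.4, 17.2 and 19.1 FPKM in CR mice at 5 months. At 15 months they ranged from 14.3 to 35.5 FPKM (median 23.4) in AL mice and from 16.6 to 32.4 FPKM (median 18.6) in CR mice. The spread was thus wider at 15 months, with coefficients of variation of 32.4% and 28.5% in AL and CR mice against 11.02% and 12.6% at 5 months. The log2 fold change with age in AL mice was 0.28 (SE 0.19, 95% interval -0.13 to 0.69, adjusted p = 0.318), and that of CR against AL at 15 months was -0.20 (SE 0.19, -0.58 to 0.19, adjusted p = 0.613). The summed interneuron markers, 7 genes with none at 0, ranged from 553 to 731 FPKM in AL mice and from 465.9 to 828.6 FPKM in CR mice at 15 months. At 5 months they ranged from 478 to 745 FPKM in AL mice and from 626 to 852 FPKM in CR mice.

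Scn3a encodes Nav1.3, the alpha subunit typical of the embryonic brain, and was detected in every adult library. AL mice at 5 months had 8.66, 8.44, 6.69, 8.12 and 6.28 FPKM and CR mice 8.92, 7.15, 7.19, 8.45 and 6.75 FPKM. At 15 months the ranges were 5.77 to 8.28 FPKM in AL mice (median 7.47) and 5.95 to 12.1 FPKM in CR mice (median 7.98). The highest value belonged to CR replicate 3, and the groups overlapped. That library also had the highest sum of 5 dentate granule cell markers of the study, 114.7 FPKM, where the sums ranged from 8.59 to 114.7 FPKM in CR mice and from 4.22 to 38.6 FPKM in AL mice at 15 months, and their part in the Scn3a level was not tested. The log2 fold change of CR against AL at 15 months was 0.21 (SE 0.14, 95% interval -0.08 to 0.50, adjusted p = 0.450), and that with age in AL mice was -0.06 (-0.36 to 0.24, adjusted p = 0.790).

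The beta subunits Scn2b and Scn4b, neighbors in the genome that both bind alpha subunits through a disulfide bond, had opposite variability. Scn2b had the smallest SD of the 8 genes when pooled over groups, although Scn8a had the lower coefficient of variation at 5 months (5.25% against 11.2% in AL and 7.13% against 7.94% in CR mice). AL mice at 5 months had 71.4, 71.4, 60.6, 56.6 and 58.6 FPKM, CR mice at 5 months 63.0, 63.2, 67.0, 55.1 and 57.2 FPKM, AL mice at 15 months 54.8 to 67.0 FPKM (median 60.4) and CR mice at 15 months 56.2 to 69.2 FPKM (median 61.8). Its pooled within-group SD was 0.12 on the log2 scale, with 12.7% of all genes tested having a smaller one, and the median over genes was 0.22. The 95% intervals of its log2 fold changes were -0.22 to 0.09 with age in AL mice, -0.12 to 0.19 with age in CR mice, -0.11 to 0.19 under CR at 15 months and -0.22 to 0.10 under CR at 5 months. These intervals bound each difference of Scn2b, and no equality was tested.

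Scn4b, whose product is linked to the resurgent sodium current and which is abundant in striatum and thalamus, was the most variable. Its pooled within-group SD was 1.15 on the log2 scale, and 97.2% of all genes tested had a smaller one. AL mice at 5 months had 8.06, 5.22, 7.28, 8.22 and 5.66 FPKM, and CR mice at that age had 2.66, 5.51, 2.32, 1.86 and 5.36 FPKM. All 5 CR libraries were below the AL median, and 2 of them lay within the AL range. The means were 6.89 ± 1.38 and 3.54 ± 1.75 FPKM (SD, n = 5 each), with a log2 fold change of -1.05 (SE 0.68, 95% interval -2.47 to 0.37, limma adjusted p = 1). The exact two-sided permutation p of this Scn4b difference was 0.0317, where 5 against 5 mice cannot go below 0.00794. The limma SE rests on a spread shared by all 4 groups, while the permutation test used only the 2 groups compared. The Scn4b coefficients of variation were 20.0% and 49.4% in AL and CR mice at 5 months. At 15 months they were 77.3% and 98.7%. At 5 months 0% of all genes were called between the diets by limma, none of the 8 among them, and 789 had an unadjusted p under 0.05.

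At 15 months Scn4b ranged from 1.92 to 27.8 FPKM in AL mice (median 9.45) and from 1.31 to 25.7 FPKM in CR mice (median 6.47). The log2 fold changes were 0.45 with age in AL mice (SE 0.65, 95% interval -0.91 to 1.81, adjusted p = 0.658), 0.86 with age in CR mice (SE 0.65, -0.50 to 2.23, adjusted p = 0.513) and -0.63 under CR at 15 months (SE 0.62, -1.93 to 0.66, adjusted p = 0.629). Single libraries moved each of these Scn4b values by more than 1.5 times. With age in AL mice it was 0.13 without AL 15 months replicate 0, 0.21 without replicate 5 and 0.89 without replicate 2. With age in CR mice it was 0.44 without CR 15 months replicate 5. Under CR at 15 months it was -1.08 without AL replicate 2, -1.05 without CR replicate 5, -0.40 without AL replicate 5, -0.36 without CR replicate 4, -0.32 without AL replicate 0 and -0.21 without CR replicate 0. The 3 libraries with the most Scn4b were AL 15 months replicate 0 (27.8 FPKM), CR 15 months replicate 5 (25.7 FPKM) and AL 15 months replicate 5 (21.0 FPKM). The same 3 libraries had the highest Scn1a, at 31.5, 32.4 and 35.5 FPKM, respectively. Their summed thalamus markers were 39.8, 36.1 and 20.3 FPKM, ranks 1, 2 and 7 of the 22 libraries. Their summed striatum markers (6 genes) were 59.9, 61.6 and 73.9 FPKM, ranks 12, 9 and 5. Taken as the mean log2 level, which weighs each marker equally, the striatum markers had 2.45, 2.40 and 2.16 in these libraries. Over the 22 libraries this mean ranged from 1.32 to 2.80. The part of either tissue in the Scn4b level was not tested.

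**Figure D3:**
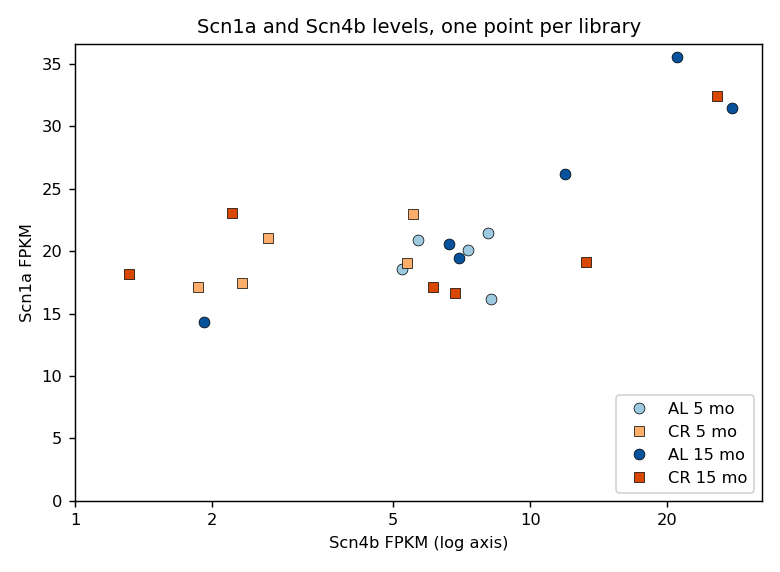
Scn1a FPKM (y axis, from 0) against Scn4b FPKM (x axis, log scale), with 1 point per library and color and shape by group. Scn4b spreads from 1.31 to 27.8 FPKM while Scn1a lies mostly between 14.3 and 26.2 FPKM, and the 3 libraries above 20 FPKM of Scn4b, all at 15 months, are the 3 highest for Scn1a.

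Calorie restriction was not associated with a called difference in any of the 8 genes. The age comparison in AL mice and the diet comparison at 15 months share the AL libraries of 15 months. Between CR and AL mice at 15 months 0.742% of all genes tested were called and none of these 8, with 0 of the 8 at an unadjusted limma p under 0.05. The median log2 fold change was -0.11 over the 8 genes and -0.0012 over all genes. Between CR mice at 15 and 5 months 3.36% of all genes and none of the 8 were called, again with 0 at an unadjusted p under 0.05, and the medians were 0.11 and 0.0014. Of the 40 exact permutation tests of the 8 genes in 5 comparisons, those at p under 0.05 were Hcn4 with age in AL mice, Hcn4 and Scn4b under CR at 5 months, Scn8a with age in AL mice and Hcn4 between CR mice at 15 and AL mice at 5 months (exact permutation p = 0.0346). These permutation p-values were not adjusted for the number of tests, and the comparisons share libraries. They were computed for the 8 genes only, so no share of all genes stands beside them.

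**Figure D4:**
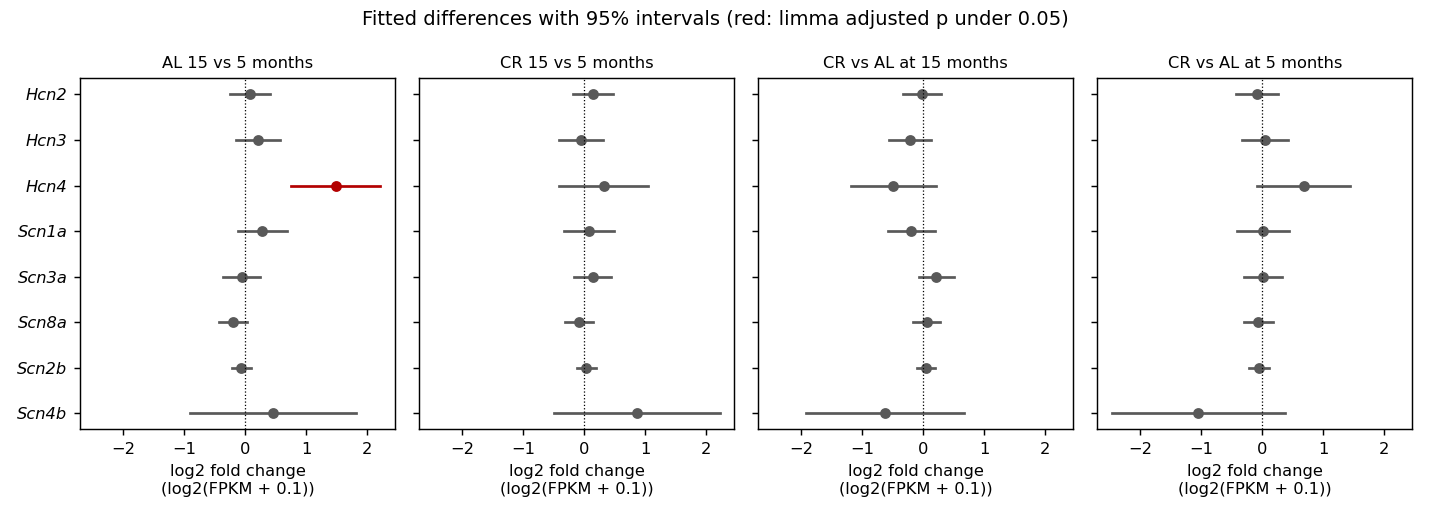
Fitted log2 fold change (x axis, log2(FPKM + 0.1) scale) of each of the 8 genes (rows) with its 95% interval, in 4 comparisons side by side. Only Hcn4 with age in AL mice, at 1.48, is called (red), while the intervals of Scn2b are the narrowest and those of Scn4b the widest.

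The other genes of the 2 channel families were described from a list of 10, of which 7 were tested; Scn4a, Scn10a and Scn11a had means under 0.1 FPKM. With age in AL mice 0 of the 7 were called higher and 1 lower (14.3%, against 20.6% of all genes), with a median log2 fold change of 0.14, and none was called in the other comparisons. The called gene was Scn3b, a further beta subunit, which fell by 1.06 on the log2 scale (SE 0.19, limma adjusted p = 0.00102) from 99.0 ± 10.98 FPKM (SD, n = 5) to 47.6 ± 4.84 FPKM (SD, n = 6). With the region score as a covariate Scn3b differed by -0.37 on the log2 scale (SE 0.23, limma adjusted p = 0.470). That fit called 0 genes with age in AL mice. Without the covariate, the CA1 markers Spink8, Fibcd1 and Pou3f1 had log2 fold changes of -3.81, -3.35 and -2.02 in this comparison. The remaining CA1 markers, Wfs1 and Mpped1, were not called, at 0.63 and -0.16. Under CR at 15 months the Scn3b level was 86.0 ± 36.9 FPKM (n = 6, SD), and its log2 difference from AL mice of that age was 0.76 (SE 0.18, adjusted p = 0.0544). Scn2a1, which encodes the alpha subunit Nav1.2, was not called, with a log2 fold change with age in AL mice of 0.14 (limma adjusted p = 0.357).

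The 11 genes for partners of these channels, which traffic HCN subunits or hold sodium channels at the axon initial segment, were all tested. With age in AL mice 1 was called higher and 2 lower (27.3%, near the 20.6% of all genes), with a median log2 fold change of -0.01, and none was called in the other comparisons. Pex5l, which encodes TRIP8b, the auxiliary subunit that traffics HCN channels to dendrites, fell by 0.70 on the log2 scale (SE 0.20, limma adjusted p = 0.0197), from 94.3 ± 29.6 to 56.0 ± 7.42 FPKM (SD, n = 5 and 6). Fgf12 and Fgf13 encode intracellular fibroblast growth factor homologous factors that bind sodium channel alpha subunits. Fgf12 rose by 0.78 (SE 0.19, adjusted p = 0.00616), from 27.8 ± 2.25 to 48.6 ± 10.8 FPKM, and Fgf13 fell by 0.51 (SE 0.15, adjusted p = 0.0250), from 105 ± 15.0 to 73.5 ± 8.04 FPKM. With the region score as a covariate the log2 fold changes were -0.01 for Pex5l, 0.07 for Fgf12 and -0.40 for Fgf13. Their SE was 0.25, 0.21 and 0.24 (limma adjusted p = 0.988, 0.922 and 0.469). That fit called 0 of all genes tested with age in AL mice. The part of tissue region in the differences of these 3 genes was not tested. Ank3, Nfasc, Nrcam and Sptbn4, scaffold and adhesion genes of the axon initial segment, were among the 8 that were not called.

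Over the 22 libraries, the genes whose log2 level was most like that of Hcn4, among 13838 other genes with a mean of at least 1 FPKM, were Tmie, Dner and Gtf2ird1. Their Pearson r with Hcn4 was 0.91, 0.91 and 0.90 and their Spearman rho 0.88, 0.86 and 0.89. Without the 2 libraries farthest from the Hcn4 median, r was 0.86, 0.82 and 0.84. They were picked as the highest of all genes and share the libraries and group differences with Hcn4, so no p is given.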

How the data were processed

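CA1 mRNA of 22 mice was analyzed. The deposited FPKM values are the authors' Cufflinks estimates from TopHat alignments to mm10 (Picard for duplicates; options for bias and multi-reads on); versions and the gene annotation are not given in the sources used here. Whole reads could not be recovered, since at most 0.567% of low genes in 3 pairs of libraries shared a ratio. Genes with a mean of at least 0.1 FPKM (16978) were fitted as log2(FPKM + 0.1) in one limma 3.58.1 model of 4 groups (R 4.3.3; eBayes with trend), with 6 contrasts and Benjamini-Hochberg adjustment over all genes. The steps were tested on simulated data. Exact permutation tests of group means (doubled one-sided p), tables and figures used scipy 1.17.1, pandas 2.3.3, numpy 2.4.6 and matplotlib 3.10.9 under Python 3.11.15.

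The members, the list of 10 other channel genes, the list of 11 partners and 13 marker lists (69 genes) were chosen with earlier results of these data known. Named genes are the members, every called gene of the 2 channel lists and the 3 genes most like a member called with age. Symbols were matched as current symbols, since RefSeq lists Hcn3 and Hcn4 also as older names of each other. Alternatives were other pseudocounts (1, 0.01), filters (any value above 0; mean of at least 1), scalings (common median, quantile, equal sum without 760 microRNA and small nucleolar RNA genes), no trend, separate fits, the replicate number as a block, the region score as a covariate and each library left out. Added after seeing the data was the omission of CR 5 months replicate 4 and CR 15 months replicate 4. Sequencing runs per library are not given, so no batch could be fitted. P-values measure the spread between mice, 1 library each. In limma each gene has a spread shared by the 4 groups, and the permutation tests used only the 2 groups compared. Single values of some genes of these families are not reported here.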

Additional observations from a re-analysis of the deposited data

Results flagged for a closer look

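In 32 sets of values, each of the 8 genes in each of the 4 groups, the highest and the lowest library were compared with the nearest other library. Chance alone marks about 5% of such sets if the values are normally distributed. The gaps were taken on FPKM and not on the log2 levels used in the tests, where a high value lies closer to the others. Hcn2 in AL 15 months replicate 0 had 68.7 FPKM, where the next library of the group had 45.3 FPKM, a gap of 0.642 of the group's range. Hcn4 in CR 15 months replicate 0 had 2.70 FPKM, where the next library had 0.771 FPKM, a gap of 0.802 of the range.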

How the results depend on the processing

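Hcn4 with age in AL mice kept its direction in all 22 alternatives and its call in 21; with the region score as a covariate its log2 fold change was 0.77 and the count of called channel genes 0, and that count was also 0 among genes with a mean of at least 1 FPKM, which do not include Hcn4. The covariate fit called 0 of all genes tested with age in AL mice, and the cause of the change with the covariate was not tested. Every other change of direction concerned a difference that did not pass the test. Rescaling without small RNA genes, which shifted the median of all genes with age in AL mice by 0.1163 and its calls from 1809 higher and 1693 lower to 3201 and 883, gave Scn3a 0.053 and Scn2b 0.054 in that comparison, Scn8a -0.015 and Scn2b -0.030 under CR at 15 months, Hcn3 0.035 and Scn2b 0.024 in CR at 15 months against AL at 5 months, and Hcn2 -0.016 for the interaction. The region score gave Scn1a -0.062 with age in AL mice, Hcn4 -0.15, Scn1a -0.14 and Scn8a 0.033 with age in CR mice, Scn8a -0.012 under CR at 15 months, Scn1a -0.14 and Scn4b 0.29 in CR at 15 months against AL at 5 months, and Hcn2 -0.026 for the interaction. At 5 months, a common median gave Scn1a -0.0091 and Scn3a -0.0012, and quantile normalization gave Scn1a -0.011. Deviations of same-numbered mice correlated weakly (31 pairs, r from -0.139 to 0.163, 2 over 0.1). The labels do not say what the replicate numbers mean, so whether they pair mice is unknown. The replicate block gave Scn1a -0.048 with age in CR mice. It gave Hcn3 0.0091 and Scn1a -0.043 in CR at 15 months against AL at 5 months. This block raised the called genes under CR at 15 months from 126 to 323. Without CR 5 months replicate 4 and CR 15 months replicate 4, chosen after seeing the data, Hcn2 was 0.08 under CR at 15 months, and Hcn3 was 0.01 and Scn4b 0.09 in CR at 15 months against AL at 5 months.

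Leaving out single libraries turned the direction of uncalled differences within these ranges. With age in AL mice, Hcn2 ranged from -0.058 to 0.16 and Scn3a from -0.13 to 0.0017. With age in CR mice, Hcn3 ranged from -0.18 to 0.059, Hcn4 from -0.031 to 0.53, Scn1a from -0.055 to 0.14, Scn8a from -0.15 to 0.0058 and Scn2b from -0.0052 to 0.065. Under CR at 15 months, Hcn2 ranged from -0.11 to 0.11 and Scn8a from -0.014 to 0.15, and at 5 months Hcn3 from -0.042 to 0.12, Scn1a from -0.059 to 0.050 and Scn3a from -0.053 to 0.061. In CR at 15 months against AL at 5 months, the called channel genes ranged from 0 to 1, Hcn2 from -0.013 to 0.16, Hcn3 from -0.14 to 0.097, Scn1a from -0.049 to 0.14, Scn2b from -0.067 to 0.017 and Scn4b from -0.61 to 0.23. For the interaction, Hcn2 ranged from -0.019 to 0.20 and Scn4b from -0.027 to 0.84 (0.87 without the pair of CR libraries named above). Called genes over all genes ranged from 2383 to 3426 with age in AL mice, 332 to 774 with age in CR mice, 15 to 732 under CR at 15 months and 180 to 922 in CR at 15 months against AL at 5 months. Other alternatives moved these counts to 304 (mean of at least 1 FPKM), 324 (separate fit) and 57 (region score) with age in CR mice, to 77 (quantile), 209 (rescaled), 6 (region score) and 0 (separate fit) under CR at 15 months, to 340, 218 and 34 (mean of at least 1 FPKM, separate fit, region score) in CR at 15 months against AL at 5 months, and to 1 (no trend) under CR at 5 months.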

Other observations

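Whether channel genes varied together among mice of one group was described over all 28 pairs of the 8 genes, as the correlation of deviations from the group means of log2 levels over 22 libraries, with libraries permuted 100000 times within their groups. No pair passed a Benjamini-Hochberg adjusted permutation p under 0.05 by Pearson's r or by Spearman's rho. Scn1a and Scn4b had r = 0.69 (permutation p = 0.0057, adjusted p = 0.133) and rho = 0.58 (permutation p = 0.0224, adjusted p = 0.0931), and r was 0.47 without the 2 libraries farthest from the Scn1a median. Hcn3 and Hcn4 had r = 0.67 (permutation p = 0.0126, adjusted p = 0.133) and rho = 0.54 (permutation p = 0.0282, adjusted p = 0.0987), and r fell to 0.30 without the 2 farthest libraries. Scn8a and Scn4b had r = 0.52 (permutation p = 0.0708, adjusted p = 0.25) and rho = 0.68 (permutation p = 0.00598, adjusted p = 0.0931), with r = 0.80 without the 2 farthest. The neighboring genes Scn2b and Scn4b had r = 0.14 (permutation p = 0.515, adjusted p = 0.655) and rho = 0.16 (permutation p = 0.451, adjusted p = 0.646).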
